A study of Mus musculus with 8 samples.

Results

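Macrophages activated with IL-4 (M2) were compared with macrophages left in media alone (M0). The arrays were chosen by the treatment in their labels, which gave 2 M2 and 3 M0 arrays, 5 of the 8 arrays in the series, and these are all the M2 arrays it holds. The cells were bone marrow derived macrophages (BMDM) of wild-type C57BL/6J mice, grown with L929 cell supernatant as the source of macrophage colony stimulating factor. On day 7 the cells were washed and plated again without that supernatant, so the M0 and M2 cells alike spent the stimulation period without it. M2 cells received IL-4 at 20 ng/ml and M0 cells received no cytokine, and RNA was taken after 24 hours. The other 3 arrays hold M1 macrophages, which received 100 ng/ml LPS together with 20 ng/ml IFN-γ. They entered the fit and are used below only where a level in M1 cells is named. The labels number the arrays as replicates from different mice, whereas the methods also speak of in vitro replicates, so each n is a number of arrays and the p-values measure the spread between arrays, which may be technical in part. As a model the cultures stand for macrophages grown from marrow and given a single dose of a single cytokine, read at a single time.

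IL-4 is a cytokine of helper T cells, basophils and other cells of type 2 immunity. It binds a receptor made of the IL-4 receptor α chain with the common γ chain or the IL-13 receptor α1 chain, whose Janus kinases phosphorylate the transcription factor STAT6, which then enters the nucleus and binds DNA. Macrophages that respond are called alternatively activated. They are known from parasite infection, allergy and wound repair for lectin receptors, chitinase-like and resistin-like secreted proteins, chemokines for T cells and eosinophils, fusion into giant cells, and arginine and polyamine metabolism.

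RNA was measured on Affymetrix Mouse 430 2.0 arrays. The deposited values are RMA intensities on a linear scale, here called units, and log2 of them was tested with limma, the 8 arrays sharing a fit. A call needed a p under 0.05 after Benjamini-Hochberg adjustment together with a 2-fold or larger difference. A gene takes the value of its brightest probe. The median intensity lay between 39.1 and 40.4 units on the 5 arrays, and a level below that is dim, which leaves the size of a fold change uncertain. Across probes, log2 intensities correlated at 0.995 to 0.997 among M0 arrays, at 0.994 between the M2 arrays and at 0.980 to 0.983 between the conditions. All 13 macrophage markers looked up were measured and none was dim on all arrays. Csf1r, the receptor of macrophage colony stimulating factor, read 14703, 14757 and 14949 units in M0 and 13177 and 14916 in M2. The summed level of the 13 was 118500 to 121300 units on the M0 arrays and 94490 to 98820 on the M2 arrays, with Adgre1, Mertk, Fcgr1, Cd14 and Aif1 lower and Mrc1 higher in M2 cells. Of 9 dendritic cell markers, Itgax and Batf3 were higher in M2 and carried the summed level from 1232 to 1331 units up to 9415 to 10830, whereas Flt3, Zbtb46 and Ccr7 did not pass. None of the measured neutrophil, NK cell, mast cell, fibroblast or erythroid markers was called. Vwf and Flt1 rose among 10 endothelial markers, whose summed level went from 992 to 1210 units up to 2095 to 2224, while the defining Pecam1 and Cdh5 were dim in both conditions. Ighm fell among 9 B cell markers, whose summed level was 1150 to 1395 units in M0 and 795 to 829 in M2. Cd28 fell among 10 T cell markers, of which none was called higher and 5 were dim on all arrays. The summed level of the 10 rose from 1889 to 2570 units in M0 to 2781 to 3168 in M2. No called gene carried that rise, so it is not read as a gain of T cells. Siglecf, a dim gene, rose among the eosinophil markers, whose summed level was 130 to 189 units in M0 and 138 to 146 in M2. Ppbp rose among the platelet markers, but their summed level fell from 4364 to 5934 units in M0 to 3832 to 4007 in M2. RNA came from whole wells, so a change in the share of cells that express a gene and a change in the RNA per cell cannot be told apart.

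IL-4 changed 1283 of 45037 probes (2.85%), 642 upward and 641 downward. Of 18194 genes with a named probe, 348 were higher in M2 (1.91%) and 321 were lower (1.76%), with a median log2 fold change of 0.01 over all genes. At any fold the shares were 8.03% higher and 6.43% lower. The counts of each gene list below are to be read beside these shares. Changes of 4-fold or more were found for 95 of the higher and 68 of the lower genes. The mean M0 level was dim for 73 of the higher genes and the mean M2 level was dim for 34 of the lower ones. When each of the 5 arrays was left out in turn, 267 higher and 242 lower genes kept their call every time. Of 368 called genes with more than 1 probe, 132 had the same call on all of their probes.

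**Figure D1:**
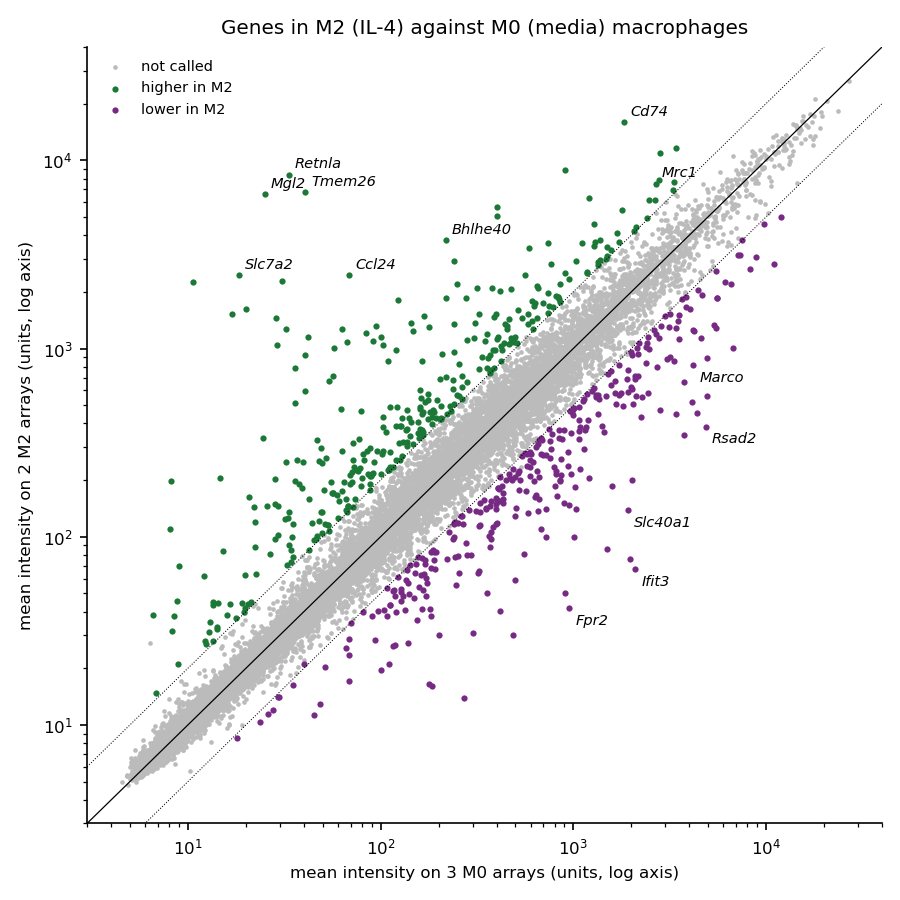
Mean intensity of each gene on the 3 M0 arrays (horizontal, units, log axis) and on the 2 M2 arrays (vertical, units, log axis). Green genes were called higher in M2, purple genes lower and grey genes neither; the solid line marks equal levels and the dotted lines 2-fold. Mgl2, Retnla and Tmem26 sit near 25 to 41 units in M0, and Tmem26 has a mean of 6763 in M2, and Ifit3 lies near 2099 in M0 and 67.3 in M2.

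The largest rises among the genes reported here took genes from dim or low levels in M0 to levels far above the array median in M2. Mgl2, a C-type lectin that binds galactose and N-acetylgalactosamine, read 25.4, 23.7 and 26.0 units in M0 and 6608 and 6678 in M2, a log2 change of 8.05 ± 0.14 (standard error; limma adjusted p = 8.7e-12). Retnla, the resistin-like protein also called FIZZ1, read 30.3, 32.5 and 37.2 units in M0 and 8700 and 8086 in M2, a log2 change of 7.98 ± 0.13 (standard error; limma adjusted p = 7.8e-12). Rnase2a, a secreted ribonuclease of the eosinophil-associated family also called Ear11, read 9.84, 10.4 and 11.6 units in M0 and 1949 and 2561 in M2. In all of these the arrays of a condition lay close together and the conditions were far apart. Tmem26, a membrane protein, read 39.2, 37.0 and 45.5 units in M0 and 6113 and 7413 in M2, a log2 change of 7.38 ± 0.15 (standard error; limma adjusted p = 1.9e-11), and both of its probes gave the call. Slc7a2, a transporter of arginine and other cationic amino acids, read 15.9, 24.9 and 14.3 units in M0 and 2245 and 2665 in M2, a log2 fold change of 7.10 that all 4 of its probes called. Socs2, an inhibitor of cytokine signaling, read 16.8 to 17.3 units in M0 and 1385 and 1666 in M2. Ch25h, which makes 25-hydroxycholesterol, read 17.5 to 22.5 units in M0 and 1557 and 1670 in M2, and Chil3, the chitinase-like protein Ym1, 26.5 to 37.6 and 2144 and 2403.

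The next of the 20 largest rises were of several kinds. Ocstamp and Itgb3 belong to cell fusion and rose by log2 fold changes of 5.68 and 4.43. Pdcd1lg2, the PD-1 ligand PD-L2, read 33.1, 34.3 and 29.6 units in M0 and 923 and 1629 in M2, so its M2 arrays lay apart but well above M0. Mcf2l, a guanine nucleotide exchange factor, reached 954 and 1139 units from 27.7 to 30.2. Cdh1, the adhesion protein E-cadherin, was at 7.73 to 8.55 units in M0 and 209 and 189 in M2, so its M0 level was dim. The chemokines Ccl24, Ccl22 and Ccl17, the transcriptional repressor Bhlhe40, the water and glycerol channel Aqp9, the receptor-like protein Plxdc2 and AA467197 complete the 20. AA467197 read 49.2 to 79.8 units in M0 and 1111 and 1436 in M2.

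The largest falls were led by interferon-induced genes. Ifit3, which belongs to a family that binds foreign RNA, read 2064, 1515 and 2717 units in M0 and 73.8 and 60.8 in M2, a log2 change of -4.93 ± 0.20 (standard error; limma adjusted p = 1.9e-08). Ifit2 read 1972, 1348 and 2571 units in M0 and 66.9 and 85.2 in M2, a log2 change of -4.65 ± 0.22 (standard error; limma adjusted p = 6.0e-08). Ifit1, Ifit1bl1, Ifi213, Rsad2, Irf7, Isg20, Cxcl10 and Iigp1 are further interferon-induced genes among the 20 largest falls, with log2 fold changes from -4.27 to -3.06. Genes of other functions were among the 20 as well. Fpr2, a receptor of formyl peptides, read 1205, 835 and 812 units in M0 and 34.7 and 48.4 in M2, a log2 change of -4.51 ± 0.18 (standard error; limma adjusted p = 1.7e-08). Slc40a1, the iron exporter ferroportin, read 1435, 1917 and 2392 units in M0 and 147 and 130 in M2. Slc13a3, a transporter of dicarboxylates, went from 1745 to 2163 units in M0 to 193 and 208 in M2, a call shared by 2 of its 4 probes. The Fcγ receptors Fcgr1 and Fcgr4 fell by 3.28 and 3.03 on the log2 scale, the membrane proteins Ms4a4c and Ms4a6b fell by 4.08 and 3.15, and Ctla2b, related to inhibitors of cysteine proteases, by 3.41. The G protein-coupled receptors Gpr31b and Adgre4 had log2 changes of -3.56 and -3.34 to dim M2 levels, as had Ifi213, Ifit1bl1 and Iigp1, so the size of these falls is uncertain. None of these 40 calls was lost when any single array was left out.

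**Figure D2:**
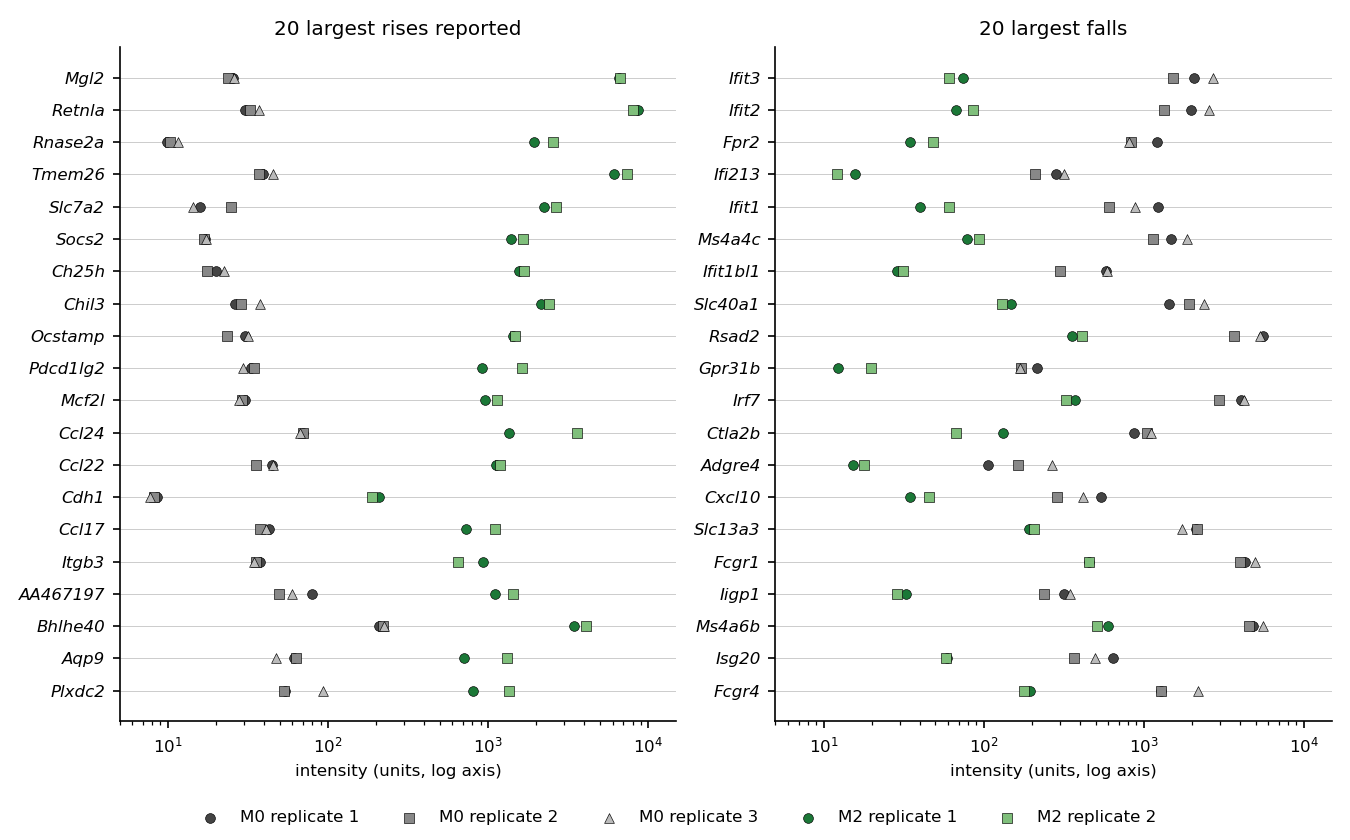
Intensity (units, log axis) of the 20 largest rises among the genes reported and of the 20 largest falls on each of the 5 arrays, with grey symbols for M0 and green for M2. The genes were chosen among those whose groups did not overlap, so in every row all M2 symbols lie on one side of all M0 symbols. In M0, replicate 2 is the lowest array for Ifit3, Ifit2, Ifit1, Rsad2 and Cxcl10.

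Promoter sequences of these genes are shown because STAT6 and the interferon factors are known to prefer different spacings of short motifs. The windows come from RefSeq promoters of build GRCm38.p6, which run from 250 bases before to 50 after a gene's start, and 12 of the 20 rises and 18 of the 20 falls had an entry. The motif TTCNNNNGAA, the spacing that STAT6 prefers, was held by 4 of the 12 rises (33.3%), 4 of the 18 falls (22.2%) and 6.94% of 14452 tested genes with an entry. The core GAAANNGAAA of the interferon-stimulated response element, searched on both strands, was held by 0 of the 12 rises, by 7 falls (38.9%) and by 3.63% of tested genes. A gene with several promoters counted once if any of them held the motif, a stretch counted under each motif it held, and a match of letters says nothing of binding. Below, capitals mark TTCNNNNGAA in 4 rises.
Retnla, chr16:48842419-48842518, plus strand: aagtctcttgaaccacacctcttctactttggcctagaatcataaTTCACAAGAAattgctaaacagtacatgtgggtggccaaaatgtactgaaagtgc
Tmem26, chr10:68723496-68723745, plus strand: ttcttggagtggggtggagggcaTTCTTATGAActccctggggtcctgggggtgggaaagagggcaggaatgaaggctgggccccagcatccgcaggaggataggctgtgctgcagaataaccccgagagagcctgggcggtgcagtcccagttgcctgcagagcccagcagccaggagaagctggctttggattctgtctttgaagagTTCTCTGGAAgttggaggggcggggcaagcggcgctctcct
Pdcd1lg2, chr19:29410789-29410888, plus strand: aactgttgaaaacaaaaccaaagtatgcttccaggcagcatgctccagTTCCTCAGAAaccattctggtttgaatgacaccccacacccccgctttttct
Ccl17, chr8:94810253-94810352, plus strand: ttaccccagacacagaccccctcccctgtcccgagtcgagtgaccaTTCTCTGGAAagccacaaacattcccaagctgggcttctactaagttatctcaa

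In 4 falls the capitals mark GAAANNGAAA or its reverse complement TTTCNNTTTC, which Ifit3 and Ifit1 held at 2 places each.
Ifit3, chr19:34583339-34583458, plus strand: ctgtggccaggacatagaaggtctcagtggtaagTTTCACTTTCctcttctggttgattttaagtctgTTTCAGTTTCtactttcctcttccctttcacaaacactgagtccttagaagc
Ifit1, chr19:34640749-34640848, plus strand: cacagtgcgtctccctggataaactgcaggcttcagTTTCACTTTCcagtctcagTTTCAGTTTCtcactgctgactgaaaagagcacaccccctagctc
Rsad2, chr12:26456523-26456622, minus strand: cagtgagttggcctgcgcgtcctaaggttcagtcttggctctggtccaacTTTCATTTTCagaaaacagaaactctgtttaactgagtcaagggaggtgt
Cxcl10, chr5:92349040-92349139, minus strand: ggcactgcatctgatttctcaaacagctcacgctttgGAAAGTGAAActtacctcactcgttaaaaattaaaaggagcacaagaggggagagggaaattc

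Genes of the IL-4 receptor chain and of its feedback inhibitors were looked at first. Of 17 measured genes of the IL-4 receptor and its signal chain, 2 were higher, 1 was lower and 14 did not pass, with a median log2 fold change of -0.10. Stat6 read 1790 to 1829 units in M0 and 1591 and 1787 in M2, and Il4ra 407 to 443 and 300 and 389, and neither passed. Jak2, a Janus kinase, rose by 1.87 on the log2 scale and Irs2, an adaptor of IL-4 and insulin receptors, by 1.10, whereas Ptpn6, the phosphatase SHP-1, fell by 1.17. Of 8 SOCS family genes, which act as feedback inhibitors, 4 were higher, none was lower and 4 did not pass, with a median of 0.99. Cish read 92.7, 86.5 and 106 units in M0 and 1097 and 1531 in M2, a log2 change of 3.77 ± 0.15 (standard error; limma adjusted p = 1.7e-08). Socs1 rose by 3.66, to 612 and 813 units in M2, and Socs6 rose by 1.20. Socs2 rose on its brightest probe and on 2 other of its 6 probes, and Socs3, with a log2 fold change of -0.70, did not pass, although it was called lower without M0 replicate 3.

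Of 23 transcription factors linked to alternative activation, 11 were higher, none was lower and 12 did not pass, with a median of 0.81. Irf4, a factor of B cells and alternatively activated macrophages, read 22.6, 25.6 and 25.8 units in M0 and 301 and 372 in M2, a log2 change of 3.76 ± 0.14 (standard error; limma adjusted p = 8.1e-09). Klf4, a zinc finger factor, read 136, 102 and 70.5 units in M0 and 1080 and 1006 in M2. The M2 arrays lay above every M0 array for both. No called gene had groups that overlapped, which the rule for a call makes likely in advance and which adds no support. Batf3, Nfil3 and Tfec, of the bZIP and MiT families, rose by 3.04, 2.48 and 1.91, Myc by 1.71 and Ppargc1b, a coactivator of mitochondrial genes, by 1.51. Bhlhe40 read 209 to 224 units in M0 and 3453 and 4114 in M2. Egr1 was called at 1.33 but not without either M2 array, Atf4 at 1.07 but not without M0 replicate 3 and on 1 of 3 probes, and Hivep3 at 1.04 but not without M0 replicate 1. Pparg, at 0.54 on the log2 scale, and Cebpb, at 0.28, did not pass. Of 17 factors of resting macrophages, 5 were lower, none was higher and 12 did not pass, with a median of -0.44. Maf, Klf2, Tcf4, Nfatc2, Dbp and Nr1d2 are in this list, and Klf4, Atf4, Nfil3, Hivep3 and Bhlhe40 in the one above. The study reported all of them as changed on these arrays, so neither count is independent of these data. Maf read 2102, 2458 and 2806 units in M0 and 600 and 565 in M2, a fall of all 6 of its probes, and Dbp, a clock output factor, and Klf2 fell by 1.95 and 1.45. Nr1d2 fell on 1 of 2 probes, and Nfatc2 on 1 of 6 probes and not without M2 replicate 2. Tcf4, at -0.80 on its brightest probe, did not pass, a result shared by 5 of its 6 probes.

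**Figure D3:**
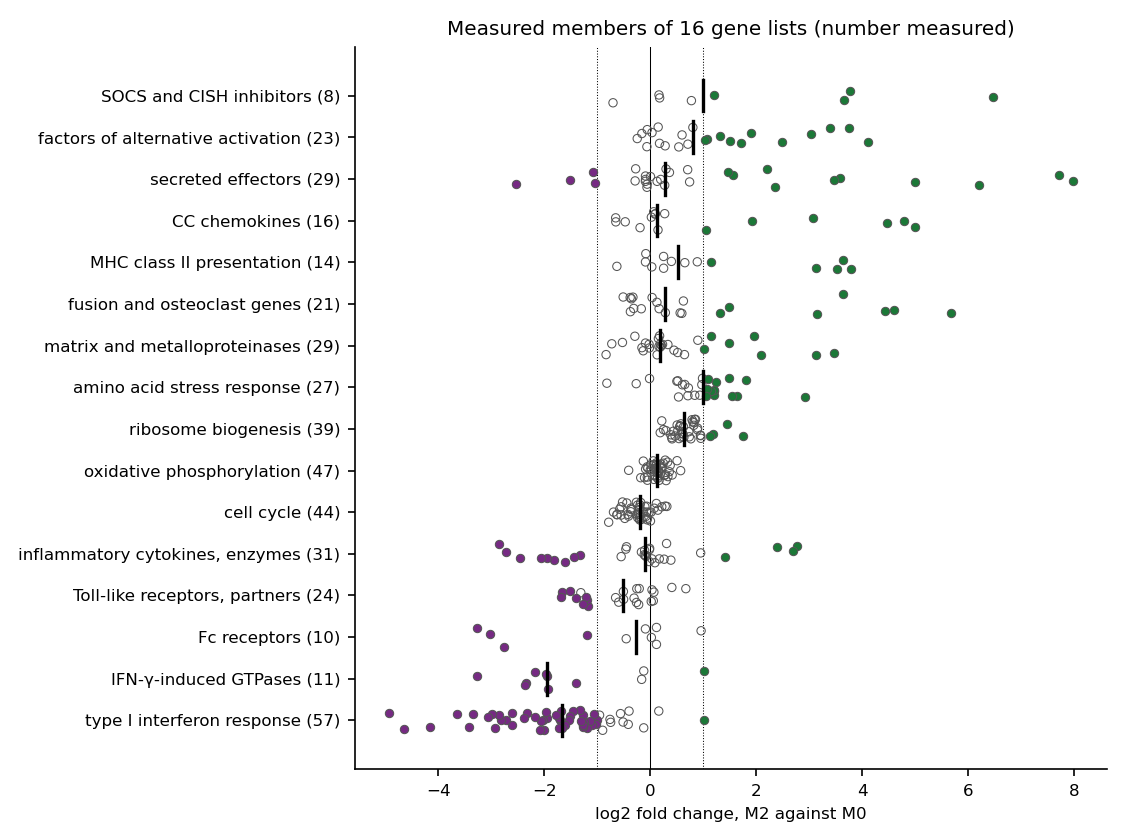
Log2 fold change of M2 against M0 for each measured gene of 16 lists, with 1 circle per gene, the number measured in brackets and a black bar at each list's median. Filled circles were called higher (green) or lower (purple) and open circles were not; dotted lines mark 2-fold. The type I interferon list has its median at -1.66 and the oxidative phosphorylation and cell cycle lists hold no filled circle.

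Secreted effectors changed in both directions. Of 29 measured, 10 were higher and 4 lower, with a median of 0.28. Beside Retnla, Rnase2a, Chil3 and Ccl24, the clotting factor F10 read 119, 73.1 and 82.7 units in M0 and 911 and 1271 in M2, and F7 rose by 1.57. Fn1, fibronectin, rose by 3.48 on 1 of its 2 probes, with 792 and 1521 units in M2. Serpinb2, an inhibitor of plasminogen activators, rose from a dim level to 61.8 units, and Vwf and Pdgfa rose by 2.21 and 1.47. Cd5l, a protein of tissue macrophages that binds lipids and microbes, read 4023, 6860 and 3890 units in M0 and 1230 and 547 in M2. Gas6, a bridge from dying cells to their uptake receptors, fell by 1.51 on 1 of 2 probes. Il10 and Gdf3 were called lower at -1.08 and -1.03, both calls were lost without M2 replicate 2, that of Gdf3 also without M0 replicate 1, and Il10 was dim in both conditions, so the number lower was 2 without that array. Igf1 and Vegfa did not pass, with log2 changes of 0.20 and -0.09.

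The CC chemokines split into a small group that rose and a larger one that did not pass. Of 16 measured, 6 were higher, none was lower and the median was 0.12. Ccl24, a chemokine for eosinophils, read 70.1, 69.6 and 66.9 units in M0 and 1345 and 3585 in M2, a log2 change of 4.99 ± 0.28 (standard error; limma adjusted p = 2.9e-07), and its M2 arrays lay far apart. Ccl22 and Ccl17, ligands of CCR4 on Th2 and regulatory T cells, read 35.4 to 45.5 and 37.7 to 43.2 units in M0 and reached 1121 and 1194, and 728 and 1113. Ccl8 rose by 3.07. Ccl7, at 1.93, was not called without M2 replicate 1, and Ccl2, at 1.05, was not called without that array or without M0 replicate 1 or 3. For these monocyte chemokines M2 replicate 1 was the brighter array, at 1896 against 1164 units for Ccl7 and 1920 against 1162 for Ccl2. Ccl3, Ccl4 and Ccl5 had log2 fold changes of -0.65, -0.47 and -0.65 and did not pass. Among 16 CXC and other chemokines, 1 was higher and 2 were lower. Ppbp, a platelet chemokine, rose by 1.92, the interferon-induced Cxcl10 fell by 3.34 and Cxcl14, at -1.06, was not called without M0 replicate 1 or M2 replicate 2. Without M2 replicate 1 there were 2 higher. Of 16 chemokine receptors, none was higher and Cxcr3 and Ccrl2 fell by 1.42 and 1.28, and without M0 replicate 3 there was 1 higher.

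C-type lectin receptors, which bind sugars on microbes and host proteins, changed in both directions. Of 28 measured, 5 were higher and 2 lower, 14 were dim in both conditions, and the median was 0.05. Clec7a, the β-glucan receptor Dectin-1, was bright in both conditions and went from 3124 to 3569 units in M0 to 11660 and 11547 in M2. Mrc1, the mannose receptor, read 1963, 3008 and 3046 units in M0 and 7263 and 7793 in M2, and Clec10a, the relative of Mgl2, rose by 1.67. Clec4n, Dectin-2, was called at 1.04 on 1 of 2 probes but not without M0 replicate 2 or M2 replicate 2. Clec4d and Cd302 fell by 1.58 and 2.02, the latter on 1 of 2 probes. Of 25 scavenger and apoptotic cell uptake receptors, 2 were higher and 5 lower. Olr1, a receptor of oxidized LDL, rose from 8.04 to 110 units and Cd300ld rose by 1.29. Marco, a scavenger receptor for bacteria, read 4544, 3959 and 4048 units in M0 and 512 and 1122 in M2, a log2 change of -2.46 ± 0.25 (standard error; limma adjusted p = 4.3e-05). Cd300lf, Mertk, Stab1 and Lrp1 fell by 1.08 to 1.36, and the last 2 were not called without M2 replicate 2, which left 3 lower. Cd163, Cd36 and Msr1 did not pass, with log2 fold changes of -0.20, 0.26 and -0.54.

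Called genes of antigen presentation were higher in class II and lower in class I. Of 14 genes of MHC class II presentation, 5 were higher, none was lower and the median was 0.53. Cd74, the invariant chain, read 2031, 1655 and 1803 units in M0 and 15543 and 16406 in M2, a log2 change of 3.13 ± 0.12 (standard error; limma adjusted p = 1.4e-08), and the α and β chains H2-Aa, H2-Ab1 and H2-Eb1 rose by 3.78, 3.64 and 3.52. For H2-Aa the M2 arrays read 4268 and 7037 units. Ciita, the activator of these genes, was dim in M0 and rose by 1.16, and without M2 replicate 2 it was not called. H2-DMa, H2-Ob and the protease Ctss did not pass. Of 15 genes of MHC class I and peptide loading none was higher, and H2-T24 and the activator Nlrc5 fell by 2.13 and 1.23, with a median of -0.23. Of 24 T cell costimulators and inhibitors, 5 were higher and 2 lower. Beside Pdcd1lg2, Slamf1, a receptor of T cells and macrophages, rose by 3.85 and Cd83 by 1.26, and Cd40 went from 155 to 171 units in M0 to 427 and 556 in M2, while the dim Slamf6, at 1.13, was not called without M0 replicate 3. Cd274 (PD-L1), Cd80 and Cd86 had log2 fold changes of 0.41, 0.14 and -0.04 and did not pass. Lgals9, galectin-9, fell by 1.31, and Slamf9, at -1.08, was not called without M2 replicate 2, which left 1 lower.

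Genes of cell fusion and osteoclasts had 7 of 21 higher, none lower and a median of 0.29. Ocstamp read 23.5 to 31.6 units in M0 and 1430 and 1474 in M2. Its relative Dcstamp read 227, 242 and 277 units in M0 and 1987 and 2405 in M2. Car2, a carbonic anhydrase that makes acid, read 51.2 to 56.2 units in M0 and 635 and 703 in M2, and the proton pump subunit Atp6v0d2 rose by 1.32. The defining osteoclast genes Acp5, Ctsk, Calcr, Oscar and Nfatc1 did not pass. Matrix genes had 7 of 29 higher, none lower and a median of 0.19. The metalloproteinases Mmp13, Mmp12 and Mmp9 rose by 3.13, 1.96 and 1.49, and the inhibitor Timp1 by 2.09. Mmp12, the macrophage elastase, read 2518, 2970 and 2979 units in M0 and 10756 and 11183 in M2. Plaur, at 1.15, was not called without M2 replicate 1, and Tgm2, at 1.02, lost its call without M2 replicate 2 and without either of M0 replicates 2 and 3. The collagens measured did not pass.

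Most genes of the type I interferon response were lower in M2 cells. Type I interferons act through a receptor with Janus kinases, and their target genes restrict viruses. Of 57 measured, 46 were lower, Gbp2 was higher and 10 did not pass, with a median log2 fold change of -1.66. The median level of the list was 1171, 892 and 1248 units in M0 and 322 and 307 in M2. M0 replicate 2 was the lowest M0 array for 50 of the 57. Rsad2, the antiviral enzyme viperin, read 5595, 3656 and 5320 units in M0 and 356 and 413 in M2. Irf7, the factor that drives interferon-α genes, read 4047, 2946 and 4252 units in M0 and 372 and 325 in M2, a log2 change of -3.41 ± 0.15 (standard error; limma adjusted p = 4.1e-08). The 2′-5′ oligoadenylate synthetases Oasl2, Oas3, Oas2 and Oasl1 fell by 2.93, 2.86, 2.61 and 2.60, Rtp4 by 2.98, Cmpk2 by 2.81 and Mx1 by 2.73. The RNA sensors Ddx58 (RIG-I), Dhx58 and Ifih1 (MDA5) fell by 1.73, 1.72 and 1.06, the last not called without M0 replicate 3 or M2 replicate 1. Calls close to 2-fold were lost without single arrays for Lgals3bp, Parp9, Slfn5, Oas1a and Dtx3l. Usp18, Irf9, Mx2, Oas1b, Slfn2, Slfn9, Tor3a, Trim21 and Trim25 had log2 fold changes of -0.95 to -0.12 and Ifi44l one of 0.16, and none of these passed. Of the 44 members with a promoter entry, 21 held GAAANNGAAA (47.7%, against 3.63% of tested genes).

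**Figure D4:**
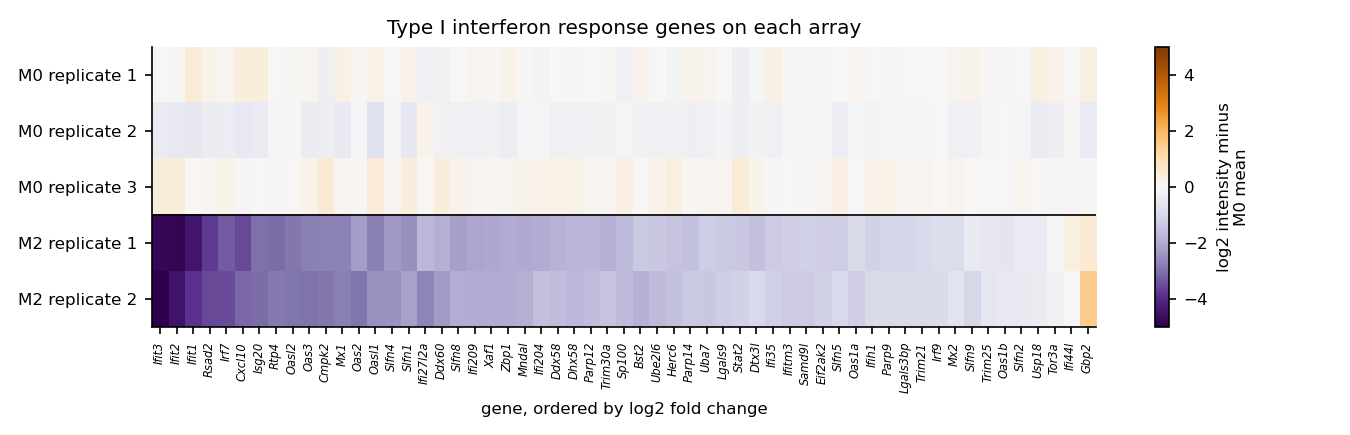
Log2 intensity minus the mean of the M0 arrays for the 57 measured genes of the type I interferon response (columns, ordered by log2 fold change) on each array (rows). Purple is below and orange above the M0 mean; both M2 rows are purple for nearly every gene, from Ifit3 at -4.93 to genes near 0, and Gbp2 at the right end is orange.

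The interferon-induced GTPases, which act on vacuoles that hold microbes, were mostly lower too. Of 11 measured, 8 were lower, 1 was higher and the median was -1.94. Iigp1 read 316, 237 and 348 units in M0 and 32.9 and 28.6 in M2, and Ifi47, Irgm2, Igtp and Irgm1 fell by 2.37, 2.34, 1.94 and 1.92. Gbp6 and Gbp7 fell by 1.97 and 1.40, Gbp3 and Gbp8 did not pass, and Gbp2 rose by 1.02. Gbp2 read 2150, 1275 and 1785 units in M0 and 2448 and 4872 in M2, and its call was lost without M0 replicate 2 or M2 replicate 2. In the list of 23 interferons, receptors and their signaling factors, 1 was higher and 3 were lower, and 2 were higher without M2 replicate 1. The called members were the factors Irf4, described above, Irf7 and Stat2, the last at -1.27, and the IL-10 receptor chain Il10ra, which was not called without M2 replicate 1, and none was an interferon or an interferon receptor. Ifnar1, Ifnar2, Ifngr1 and Ifnb1 had log2 fold changes of 0.42, -0.34, 0.11 and -0.05 and did not pass.

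The Toll-like receptors and partners that were called were lower in M2 cells. Of 24 Toll-like receptors and their partners, 8 were lower, none was higher and the median was -0.50. Cd14, the coreceptor for LPS, read 8029, 8526 and 8327 units in M0 and 2283 and 2998 in M2. Tlr13, Tlr2, Tlr3 and Tlr7 fell by 1.68, 1.39, 1.21 and 1.17, and Cd180 with its partner Ly86 by 1.52 and 1.27, the call for Tlr3 being lost without M2 replicate 2. Tlr4, at 0.67, and Tlr9, at -0.26, did not pass. Of 10 Fc receptors, 4 were lower, none was higher and the median was -0.27, and 1 was higher without M2 replicate 1. Fcgr1, the high-affinity receptor for IgG, read 4285, 3985 and 4950 units in M0 and 453 and 453 in M2. Fcgr4 and Fcgrt fell as well, the latter by 1.19, whereas Fcgr3, Fcgr2b and the shared chain Fcer1g did not pass.

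Inflammatory cytokines and enzymes had 4 of 31 higher, 9 lower and a median of -0.09. Nfkbiz, a nuclear coregulator of NF-κB, and Saa3, an acute phase protein, fell by 2.86 and 2.73, and Il18, Ebi3 and Il18bp fell by 1.81, 1.61 and 1.32. Lcn2, at -1.94, was not called without M2 replicate 1. Csf1, macrophage colony stimulating factor, read 276, 260 and 300 units in M0 and 1363 and 2358 in M2. Acod1, which makes itaconate, read 1755, 939 and 932 units in M0 and 4581 and 8069 in M2, a log2 change of 2.40 ± 0.27 (standard error; limma adjusted p = 8.0e-05). Il6 read 9.46, 9.39 and 8.04 units in M0, a dim level, and 35.8 and 104 in M2, and its call was lost without M2 replicate 2. Ptgs2 was called at 1.42 from dim levels on 1 of 2 probes and lost the call without any single array of the 5. Without M2 replicate 2, 2 of the list were higher. Tnf, Il1b, Il12b and Nos2 had log2 fold changes of -0.11, 0.39, -0.02 and 0.03 and did not pass.

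Several genes of the amino acid stress response and of amino acid transport rose. The stress response is run by Atf4, which cells make more of when amino acids are short or proteins misfold. Of 27 measured, 13 were higher, none was lower and the median was 0.99. At any fold, with an adjusted p under 0.05, 23 were higher and none lower, where 8.03% of all genes were higher and 6.43% lower. Trib3, an inhibitory pseudokinase, read 498, 355 and 223 units in M0 and 1090 and 1311 in M2, a log2 change of 1.81 ± 0.27 (standard error; limma adjusted p = 6.9e-04). Slc7a11, the cystine transporter, read 75.2, 56.4 and 54.4 units in M0 and 376 and 581 in M2. Chac1, Psat1, Aldh18a1 and Psph rose by 1.63, 1.55, 1.49 and 1.25. M0 replicate 3 was the lowest M0 array for 23 of the 27, and the list's median level was 720, 674 and 465 units in M0 and 1143 and 1311 in M2. The part of that array in these calls was not tested beyond leaving it out, which left Asns, Aars, Atf4 and Shmt2 uncalled, and Phgdh was not called without M2 replicate 1. Of 25 amino acid transporters, 6 were higher and 2 lower, with a median of 0.28. Beside Slc7a2 and Slc7a11, Slc1a5 and Slc7a5, carriers of glutamine and of leucine, rose by 1.67 and 1.38. The arginine carrier Slc7a1 rose from a mean of 632 to 1753 units and Slc1a4, a carrier of alanine and serine, from 59.3 to 166, while Slc7a7 and Slc43a2 fell by 1.87 and 1.20. Among the 21 genes of polyamine and arginine metabolism counted here, only the transporters Slc7a2 and Slc7a1 were called. Odc1 and Srm, at 0.50 and 0.92, did not pass. A gene of arginine metabolism that the study names is left out of this count, so the count does not describe all enzymes of that pathway.

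Ribosome biogenesis genes were shifted upward by less than 2-fold in most cases. Of 39 measured, 4 were higher at 2-fold or more, none was lower and the median was 0.63. At any fold 33 were higher and none was lower, where 8.03% of all genes were higher and 6.43% lower. Nop58 and Dkc1, of the particles that modify ribosomal RNA, rose by 1.74 and 1.45, and Rrs1 and Rrp12 by 1.19 and 1.12. Nop58 read 85.3, 89.5 and 79.5 units in M0 and 323 and 249 in M2. Without M2 replicate 2 there were 7 higher at 2-fold, and M0 replicate 3 was the lowest M0 array for 29 of the 39.

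**Figure D5:**
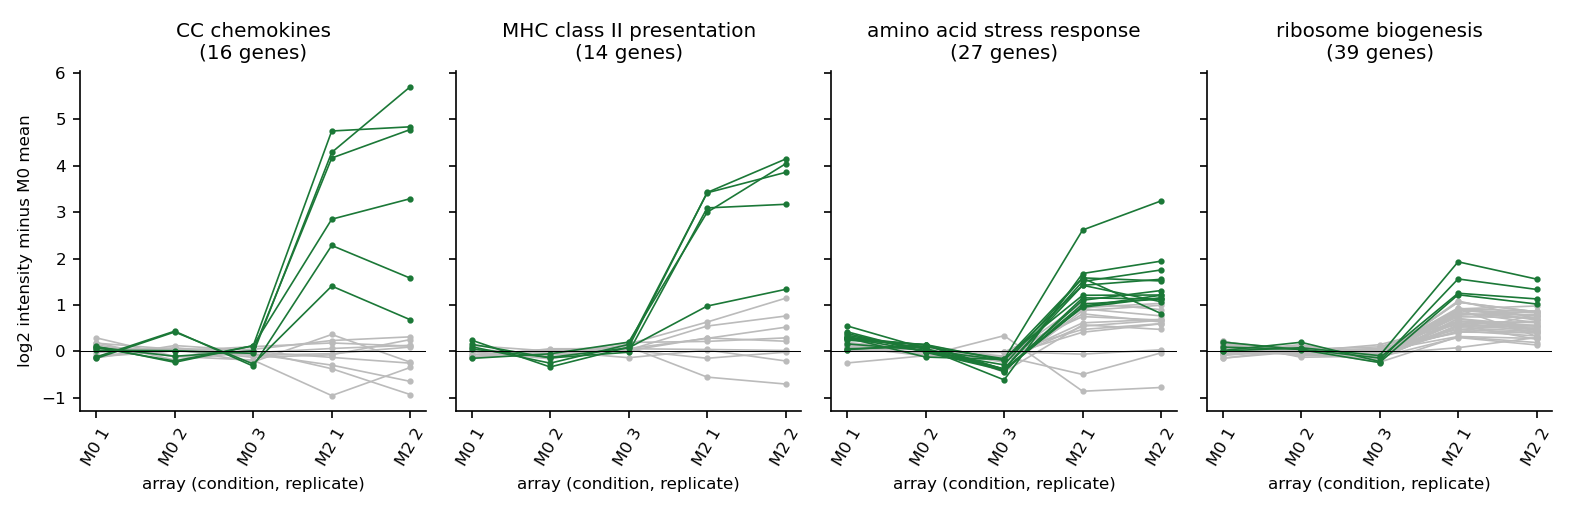
Log2 intensity minus the mean of the M0 arrays (vertical) for the measured genes of 4 lists on each of the 5 arrays (horizontal). A line joins the values of a gene, green where it was called higher and grey where it was not; the arrays have no order. Chemokines split into a few that rise and many near 0, whereas the amino acid stress and ribosome biogenesis genes lie above 0 almost throughout on both M2 arrays, with medians of 0.99 and 0.63.

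Outside glycolysis, central energy metabolism had few calls at 2-fold or more. Among all genes 1.91% were higher and 1.76% lower. Of 23 glycolysis genes, 4 were higher (17.4%, above the share of all genes) and none lower, with a median of 0.06. Pfkp, phosphofructokinase of platelets, rose by 1.37 on 2 of 3 probes and the glucose transporter Slc2a1 by 1.19, while Slc2a6, at 1.26, was not called without M2 replicate 2 and Slc16a1, at 1.09, not without M0 replicate 1. Without M2 replicate 2, 1 of the list was lower. Of 31 genes of the TCA cycle and its branches Acod1 alone was called, 2 without M2 replicate 1, and of 47 genes of oxidative phosphorylation none was, with medians of 0.25 and 0.13. At any fold limma called 7 of the 31 TCA cycle genes higher and 1 lower, where 8.03% of all genes were higher and 6.43% lower. Of the 47 it called 5 higher and 1 lower at any fold, 13 had an unadjusted p under 0.05, and the methods' t-test with adjustment called 0. Fatty acid uptake and oxidation had 1 of 37 higher, the coactivator Ppargc1b, and 1 lower, the carrier Fabp3, on 1 of 2 probes, and Cpt1a, at -0.77, did not pass. None of 20 cholesterol synthesis genes was called, at any fold either, 2 had an unadjusted p under 0.05, the t-test called 0, and 1 was higher without M2 replicate 1. None of 44 cell cycle genes was called, with a median of -0.20, 2 of them lower at any fold, 9 with an unadjusted p under 0.05, 0 by the t-test, and 1 lower without M2 replicate 1. Of 38 lysosome genes only the channel Mcoln2 was called, at 1.39. At any fold 3 of them were higher and 9 lower, beside the 8.03% and 6.43% of all genes.

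Some of the largest changes set M2 apart from M1 cells as well and others did not. The M2 arrays were compared directly with the 3 M1 arrays, where 7.41% of genes differed by the same rule in either direction. Both comparisons use the same M2 arrays, so they are not independent. Mgl2, Retnla and Tmem26 had M1 levels of 19.6, 28.5 and 28.7 units, and M2 exceeded M1 by log2 differences of 8.42, 8.20 and 7.88. Mrc1, which had a mean of 2673 units in M0, was at 39.5 in M1, and M2 exceeded M1 by 7.57. Slc7a2 read 3522, 1842 and 3655 units on the M1 arrays, and its difference between M2 and M1 was -0.23 (standard error 0.28, adjusted p = 0.67). AA467197 read 2698, 1468 and 2054 units in M1, a difference of -0.67 (standard error 0.24, adjusted p = 0.078). Both thus had high levels under either stimulus, and their differences missed the threshold without being shown to be equal. Fpr2 read 7358, 7827 and 8276 units in M1, so that M2 lay below M1 by 7.57 and M0 lay between them. Slc40a1 was at 90.1 units in M1 and 139 in M2, a difference of 0.64 (standard error 0.20, adjusted p = 0.041) that stayed under 2-fold. Slc13a3 and Adgre4 differed between M2 and M1 by 0.20 and -0.39 and did not pass, from levels well under those in M0 cells.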

How the data were processed

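Per the labels and the study's methods, total RNA of 8 BMDM cultures was hybridized to Affymetrix Mouse 430 2.0 arrays, and the authors used GenePattern's Expression File Creator for RMA normalization of all arrays. The deposited table holds intensity values on a linear scale for 45101 probes. The version, background settings and genome build were not given in the sources used here. RMA makes the arrays' distributions alike, so a shift shared by most genes cannot be seen. The number of arrays limits the precision.

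From these values log2 was taken, 64 control probes were left out and 45037 were tested with limma 3.58.1 in R 4.3.3 (lmFit, eBayes) on all 8 arrays with a mean per condition (5 residual and 6.95 prior degrees of freedom). The Benjamini-Hochberg adjustment ran over all tested probes. The procedure was tested on simulated data. GEO's platform annotation gave 1 symbol to 34945 probes, several to 932 and none to 9160, and no symbol changed when checked against RefSeq through the gene ID. Probes of closely related genes can share signal. The 41 gene lists come from textbook knowledge, with 1025 of 1126 entries measured. Several also hold genes that the study reported as changed on these same arrays, so their counts are not independent of the data. The members and lists were chosen with earlier results of these data known. Named were the 20 largest rises and falls whose groups did not overlap, up to 6 changed members of each list in each direction and its defining members, and genes the study names. A few genes named in the study are left out of this text and of the list counts. Other members named were chosen after their values were seen. Alternatives were the methods' t-test, a fit of the 5 arrays alone, an intensity trend, a replicate block, median centring, quantile normalization, limits at 64 units, an adjusted p under 0.01, no fold limit, the mean over a gene's probes, and each array left out. Promoters and coordinates are from RefSeq, GRCm38.p6. Python 3.11.15 with matplotlib 3.10.9 drew the figures.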

Additional observations from a re-analysis of the deposited data

How the results depend on the processing

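The counts of probes and genes in each direction stayed within 1.5 times those reported under every alternative but those that follow. The methods' t-test on log2 values with adjustment gave 106 probes and 67 genes higher and 54 probes and 31 genes lower, and on linear values 99 and 60 higher and 28 and 16 lower. With values under 64 units set to 64, 401 probes were higher and 380 lower, and with no limit on fold 2848 probes and 1461 genes were higher and 2635 and 1169 lower. Leaving out each array in turn gave 634 to 666 probes and 330 to 363 genes higher and 591 to 691 probes and 292 to 355 genes lower. With the replicate number as a block, 646 probes were higher and 701 lower. The sources used here do not say whether a shared number means a shared mouse. Deviations of arrays with the same number had correlations of -0.172 to 0.0547 in 7 pairs. The 14 pairs of other numbers had -0.150 to 0.190. Deviations of the 2 M2 arrays mirror each other, so M0 replicate 1 had 0.0475 with M2 replicate 1 and -0.0475 with M2 replicate 2. Pairs of M0 with M2 arrays thus cannot show whether a number is shared. The numbers were not used as a pairing, and a shared mouse stays undecided. Median centring gave 684 probes higher and 589 lower, and a further quantile normalization 611 and 666, with the median over all probes moved from 0.008 to 0.044 and 0.002. Of 249 named genes the t-test with adjustment lost the call of 209 on log2 and 227 on linear values, the floor of 64 units that of 62, the mean over probes that of 26, the block that of 8 and leaving out an array that of 7 to 25, and the other alternatives lost 8 or fewer. None of those a setting tested changed sign, and the limit to probes above 64 units tested 243. The cause of the differences was not tested.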

Other observations

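Receptors for growth and survival signals changed in both directions. Of 33 measured, 7 were higher and 2 lower, with a median log2 fold change of 0.13. Il6st, the shared chain gp130, rose by 2.12 and Csf2rb, the shared chain of GM-CSF, IL-3 and IL-5 receptors, by 1.48, from 2770 to 7816 units. Flt1, a receptor of vascular endothelial growth factor, rose by 2.54, Il31ra by 1.92, Il27ra by 1.65 and Il1rl2 by 2.39 on 1 of 2 probes. Lifr, which pairs with gp130, fell by 1.78 on 1 of 3 probes and the death gene Pmaip1 by 1.62. Csf1r did not pass. Among 31 integrins and adhesion genes, 5 were higher and 4 lower. Itgax, CD11c, read 840, 902 and 977 units in M0 and 8095 and 9624 in M2, and Itga6 fell by 1.71. Itgal and Itga4 were called lower but not without M2 replicate 1.

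Receptors for lipids, peptides and nucleotides had 3 of 33 higher and 5 lower. The prostaglandin receptors Ptgir and Ptger2 rose by 2.41 and 1.43 and the purine receptor P2ry1 by 2.17, whereas Fpr2, C5ar1 and Gpr18 fell by 4.51, 1.72 and 1.40. Gpr34 and S1pr1 were not called without M0 replicate 2, which left 3 lower, nor without M2 replicate 2, and S1pr1 not without M0 replicate 3. Of 26 eicosanoid and oxysterol enzymes, 4 were higher and 3 lower. Hpgds, which makes prostaglandin D2, read 622, 1058 and 1020 units in M0 and 184 and 120 in M2. Pla2g4a, which frees arachidonic acid, rose by 1.21, and Alox5ap, at -1.21, was not called without M2 replicate 2. Of 20 complement genes Itgax was higher and Cfb, C5ar1 and Cd55 were lower, Cd55 being dim and not called without M0 replicate 2 or M2 replicate 2. Of 23 genes of iron and heme handling, 2 were higher and 5 lower. Tfrc, the transferrin receptor, read 768, 819 and 639 units in M0 and 3731 and 3534 in M2, and the exporter Slc40a1 and the vesicle transporter Slc11a1 fell by 3.76 and 1.24. Alas1, at 1.02, was not called without M0 replicate 3 or M2 replicate 2, which left 1 higher. Of 13 Ms4a genes none was higher and 4 were lower, with Ms4a6c at -2.01 and Ms4a4b, which was dim in M2, beside the pair named above. Of 21 genes of cholesterol efflux and fatty acid synthesis, Apoc2 and Apoc1 fell by 2.64 and 1.45, and Scd2, at 1.20, was not called without M2 replicate 2, which left 0 higher. Of 19 proton pump genes, Atp6v0a1 and Atp6v0d2 rose by 1.45 and 1.32. Probes with no symbol or with several, 55 higher and 128 lower, are not described here.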
